A study of Mus musculus with 4 samples.

Results

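The 10 genes Dnmt1, Dnmt3a, Dnmt3b, Tet1, Tet2, Tet3, Ezh2, Asxl1, Idh1 and Idh2 write, remove or regulate DNA methylation and Polycomb silencing, and most are known from human myeloid leukaemia as recurrently mutated genes. They were chosen by name, and all 10 were among the 21889 gene symbols listed for every library. Expression was measured by RNA sequencing of 4 acute myeloid leukaemia cell lines from BXH-2 mice, an inbred strain known for retrovirus-induced myeloid leukaemia. B117H and B140H were the highly resistant lines, with a cytarabine (Ara-C) IC50 of about 160 µg/ml for B117H and 60 µg/ml for B140H, and were made by exposure to rising Ara-C. B117P and B140P were their sensitive parents, the IC50 being about 150 ng/ml in B117P and 110 ng/ml in B140P. All 4 lines were grown in the same medium without Ara-C, each was sequenced as 1 library, and whether a line is a single clone is not given in the sources used here. Values are FPKM (fragments per kilobase of transcript, scaled to the mapped fragments of the library), a level per length.

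DNA methylation is set on cytosines followed by guanine, called CpG sites. DNMT3A and DNMT3B place it on unmethylated DNA and DNMT1 copies it onto the daughter strand after replication, while the TET enzymes oxidise 5-methylcytosine and start its removal. EZH2 is the catalytic subunit of Polycomb repressive complex 2 (PRC2), which methylates histone H3 at lysine 27, and ASXL1 works with the deubiquitinase BAP1 on the histone mark left by Polycomb repressive complex 1 (PRC1). IDH1 in the cytosol and IDH2 in mitochondria make 2-oxoglutarate, the cofactor of the TET enzymes and of histone demethylases. In human leukaemia, mutant IDH1 and IDH2 make 2-hydroxyglutarate, which inhibits those enzymes.

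The genome around the start sites of these genes is itself dense in CpG. RefSeq promoter windows on GRCm38.p6, each running from 250 bases before a start to 50 bases after it, matched 10 of 10 genes with 15 windows. The 3 windows below, each the most upstream of its gene, belong to Dnmt3a, Dnmt3b and Tet2, whose levels the main results turn on. They are printed 5′ to 3′ on the strand of the gene with each CpG in capitals.
Dnmt3a, chr12:3806730-3807029, plus strand: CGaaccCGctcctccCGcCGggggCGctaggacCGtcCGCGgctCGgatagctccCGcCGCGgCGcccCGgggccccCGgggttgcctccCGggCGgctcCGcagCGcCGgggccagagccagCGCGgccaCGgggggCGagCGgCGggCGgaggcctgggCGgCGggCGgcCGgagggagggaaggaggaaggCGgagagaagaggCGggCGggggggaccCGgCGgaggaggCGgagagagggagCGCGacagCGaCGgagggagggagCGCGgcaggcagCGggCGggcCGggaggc
Dnmt3b, chr2:153649199-153649498, plus strand: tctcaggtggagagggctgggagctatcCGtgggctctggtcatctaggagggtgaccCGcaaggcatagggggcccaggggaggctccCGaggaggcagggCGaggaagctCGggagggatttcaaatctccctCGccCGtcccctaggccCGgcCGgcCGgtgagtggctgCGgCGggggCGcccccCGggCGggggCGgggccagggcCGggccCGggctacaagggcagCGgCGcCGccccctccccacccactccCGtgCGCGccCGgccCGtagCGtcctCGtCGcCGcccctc
Tet2, chr3:133544341-133544640, minus strand: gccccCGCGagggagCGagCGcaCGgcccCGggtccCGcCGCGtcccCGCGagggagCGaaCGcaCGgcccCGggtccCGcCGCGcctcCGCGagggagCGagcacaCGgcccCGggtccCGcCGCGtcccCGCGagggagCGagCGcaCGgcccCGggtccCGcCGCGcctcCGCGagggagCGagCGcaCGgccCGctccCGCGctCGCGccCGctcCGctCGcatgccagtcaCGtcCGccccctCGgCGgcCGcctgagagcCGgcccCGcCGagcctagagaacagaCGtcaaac
The Dnmt3a window held 46 CpG, the Dnmt3b window 30 and the Tet2 window 57, against a median of 7 over all 32851 windows. By CpG count the Tet2 window was at percentile 99.9 of all windows. The run ccgcgagggagcg occurred 5 times in the Tet2 window at a constant spacing of 42 bases. Among the most upstream windows of the other genes, Dnmt1 had the lowest CpG count, 2, and Ezh2 the highest, 31. Dnmt1 has 3 annotated starts, and its most downstream window held 33 CpG.

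Short motifs were searched on both strands of these windows. The letters GGGCGG, a GC box, were in the most upstream window of 8 of the 10 genes, against 35.7% of all windows. The letters CCAAT were in 5 of the 10, against 37.4%, and TATAAA was in 0 of the 10, against 13.6%. The E2F letters TTTCGCGC or TTTGGCGC, which E2F factors can bind in genes of DNA replication, were in 0.813% of all windows. Among the 10 genes they were in the window of Ezh2 and in the most downstream window of Dnmt1, and these stretches are shown with the match in capitals because Dnmt1 and Ezh2 are described beside S phase genes further on.
Ezh2, chr6:47595004-47595043, minus strand: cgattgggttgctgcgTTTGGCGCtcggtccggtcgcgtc
Dnmt1, first match, chr9:20952819-20952858, minus strand: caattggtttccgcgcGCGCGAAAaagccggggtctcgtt
Dnmt1, second match, chr9:20952574-20952606, minus strand: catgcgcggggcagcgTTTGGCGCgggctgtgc
In the first Dnmt1 stretch the capitals are the reverse complement of TTTCGCGC. A match describes letters only, and no binding or methylation was measured.

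Counts were not among the deposited values, and the smallest FPKM values placed the depth at an estimated 19100000 to 24500000 fragments per library. Intervals below are exact 95% Clopper-Pearson intervals on fragments estimated from that depth. They cover counting error only and say nothing of the spread between cultures. Across all expressed genes (a mean of 1 FPKM or more) the libraries correlated at 0.91 within the B117 lineage and 0.94 within the B140 lineage, and at 0.84 or less across lineages. Myeloid markers summed to 1831 FPKM in B117H, 3568 in B117P, 1059 in B140H and 1066 in B140P. At 1 FPKM or more were 19 of the 20 markers in B117H, 20 in B117P, 12 in B140H and 13 in B140P. Mpo, the granule enzyme myeloperoxidase, was at 473 FPKM in B117H and 1450 in B117P, but at 0.913 in B140H and 10.4 in B140P. Kit was listed at 0 in both B140 lines. Other myeloid markers were higher in the B140 lines, such as the receptor Flt3, at 347 FPKM in B140H and 249 in B140P, against 48.0 in B117H and 32.9 in B117P, and likewise Cd33 and Cebpb. Past 2-fold on FPKM + 1, 8 of the 20 markers fell in B117H, where 4.62% of all expressed genes were past it in either direction, and 2 fell in B140H, where 3.94% were. B cell markers summed to 86.1 FPKM in B117H, 11.0 in B117P, 131 in B140H and 180 in B140P. Most of the sum in the B117 lines was 1 gene, Vpreb1, at 81.3 FPKM in B117H and 8.32 in B117P. The B cell regulator Ebf1 was at 23.7 FPKM in B140H and 24.7 in B140P, while the B cell surface gene Ms4a1 was at 0 or below 0.03 FPKM in every line. These lines thus differ in their lineage markers, and the part of that in the levels below was not tested. In such bulk RNA, fewer cells of a kind and less RNA per cell cannot be told apart.

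A mean of 1 FPKM or more over the 4 libraries was reached by 10066 genes, here called expressed, and 9 of the 10 genes were among them. Tet1 was not. A gene was called when its ratio, computed on FPKM + 1, was at least 2-fold, which is 1 on the log2 scale. By that rule 0 of the 9 genes were called in B117H over B117P, where 4.62% of expressed genes were. Likewise 0 of the 9 were called in B140H over B140P, where 3.94% of expressed genes were. The median log2 ratio of the 9 genes was -0.08 in B117H, against -0.03 for all expressed genes, and -0.02 in B140H, against 0.11 for all expressed genes. At 1.5-fold, 3 of the 9 genes were called in B117H, where 13.8% of expressed genes were, and 3 of the 9 in B140H, where 13.1% were. In B117H these were Dnmt3a, which was higher, and Tet2 and Idh2, which were lower. In B140H they were Tet2, which was higher, and Dnmt3b and Idh1, which were lower. Tet2 was called in both lineages, in opposite directions. Dnmt3a in B117H and Dnmt3b in B140H lay just inside the 2-fold limit, and both were past it on FPKM without the added 1.

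**Figure D1:**
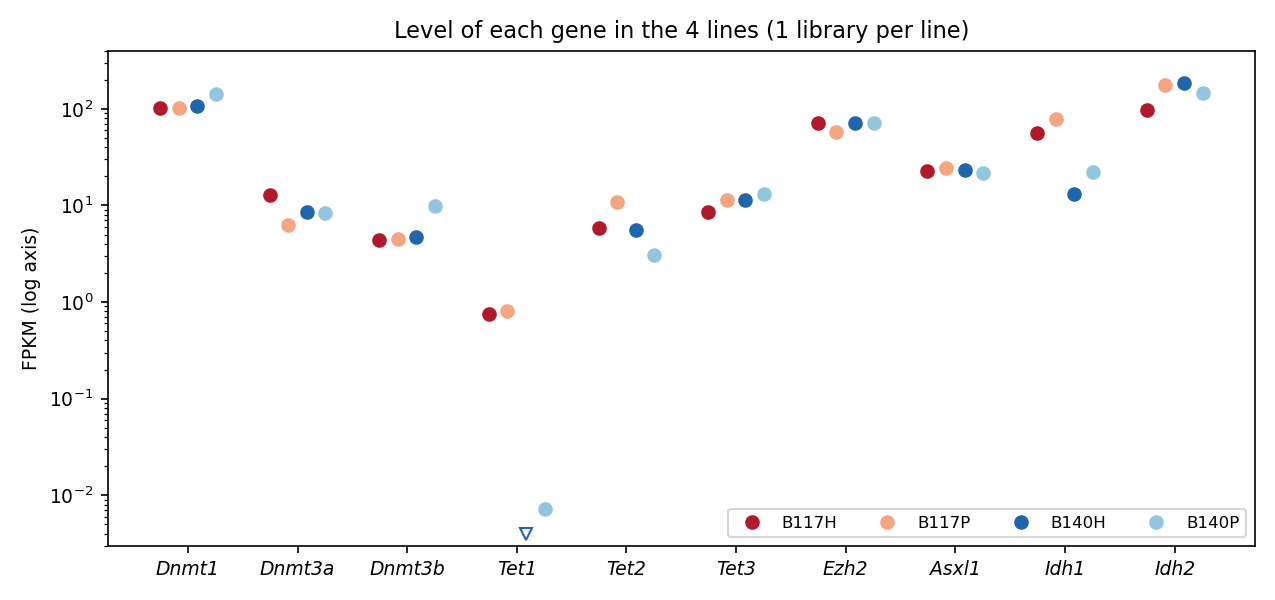
FPKM of each of the 10 genes (log axis) in B117H, B117P, B140H and B140P, 1 library per line, with an open triangle at the bottom of the axis for a gene listed at 0. Dnmt1, Idh2 and Ezh2 lie above 50 FPKM in all 4 lines, Tet1 lies below 1 FPKM, and Idh1 is far lower in both B140 lines than in both B117 lines.

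Among the DNA methyltransferases, Dnmt1 made up 85.5% of the summed FPKM of the 3 genes in B117H, 90.4% in B117P, 89.2% in B140H and 88.6% in B140P. The maintenance enzyme therefore exceeded both de novo enzymes together in every line. Dnmt1 (mm9 chr9:20711650-20764332) was at 102.1 FPKM in B117H and 101.9 in B117P, and at 108.0 in B140H and 142.1 in B140P. Its level in B117H was 100.2% of that in B117P (97.8 to 102.7), and its level in B140H was 76.0% of that in B140P (74.4 to 77.7). The log2 ratios on FPKM + 1 were 0.00 in B117H and -0.39 in B140H. In B140H the 20 expressed genes nearest to Dnmt1 had a median log2 ratio of -0.32, and chromosome 9 as a whole had one of -0.20, so the ratio of Dnmt1 was within the range of its neighbourhood. The median over all expressed genes in B140H was 0.11. Relative to it the log2 ratio of Dnmt1 was -0.50, and ratios in B140H can be read against that shift throughout.

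Dnmt3a, a de novo methyltransferase (mm9 chr12:3806980-3914443), was at 12.97 FPKM in B117H and 6.28 in B117P, and at 8.46 in B140H and 8.34 in B140P. B117H was thus the highest of the 4 lines and its parent the lowest. The level in B117H was 206.6% of that in B117P (193.2 to 220.9), a log2 ratio of 0.94 on FPKM + 1. In B140H it was 101.5% of that in B140P (94.95 to 108.6), a log2 ratio of 0.02. The neighbourhood of Dnmt3a was high in B117H too. It is close to the start of chromosome 12, and the 15 expressed genes taken as its neighbours, over 5.06 Mb, had a median log2 ratio of 0.75 in B117H and -0.18 in B140H. The nearest genes on either side, Dtnb and Dnajc27, had log2 ratios of 1.48 and 0.90 in B117H. All 339 expressed genes of chromosome 12 had a median of 0.44 in B117H and -0.04 in B140H. The part of this wider region in the level of Dnmt3a was not tested.

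Dnmt3b, the other de novo methyltransferase (mm9 chr2:153475190-153513466), was at 4.39 FPKM in B117H and 4.55 in B117P, and at 4.67 in B140H and 9.89 in B140P. B140P stood above the other 3 lines. The level in B140H was 47.3% of that in B140P (42.2 to 52.9), a log2 ratio of -0.94, and that in B117H was 96.5% of that in B117P (83.9 to 111.2), a log2 ratio of -0.04. Its neighbours had a median log2 ratio of 0.17 in B140H, and none of the 20 was past 2-fold there. The nearest ones, Commd7 and Mapre1, had log2 ratios of 0.04 and 0.19.

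The pair of de novo enzymes can be set against each other inside a library, where any scaling of the library cancels. This ratio and the other ratios of paralogs below were chosen after the values had been seen. Dnmt3a over Dnmt3b was 2.95 in B117H and 1.38 in B117P, and 1.81 in B140H and 0.843 in B140P. The ratio in B117H was 2.14 times that in B117P (1.84 to 2.49), and the ratio in B140H was 2.15 times that in B140P (1.89 to 2.44). Both resistant lines thus had a higher ratio than their parents by a like factor, through the level of Dnmt3a in B117H and that of Dnmt3b in B140H. A shift of a whole chromosome region does not cancel in this ratio. The neighbours of Dnmt3a had a median log2 ratio of 0.75 in B117H, and those of Dnmt3b had one of 0.17 in B140H. The part of these regions in the ratio was not tested. The summed FPKM of the pair was 17.4 in B117H and 10.8 in B117P, and 13.1 in B140H and 18.2 in B140P, so the sum differed in opposite directions. With 1 library per line the ratio has no replicate check.

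**Figure D2:**
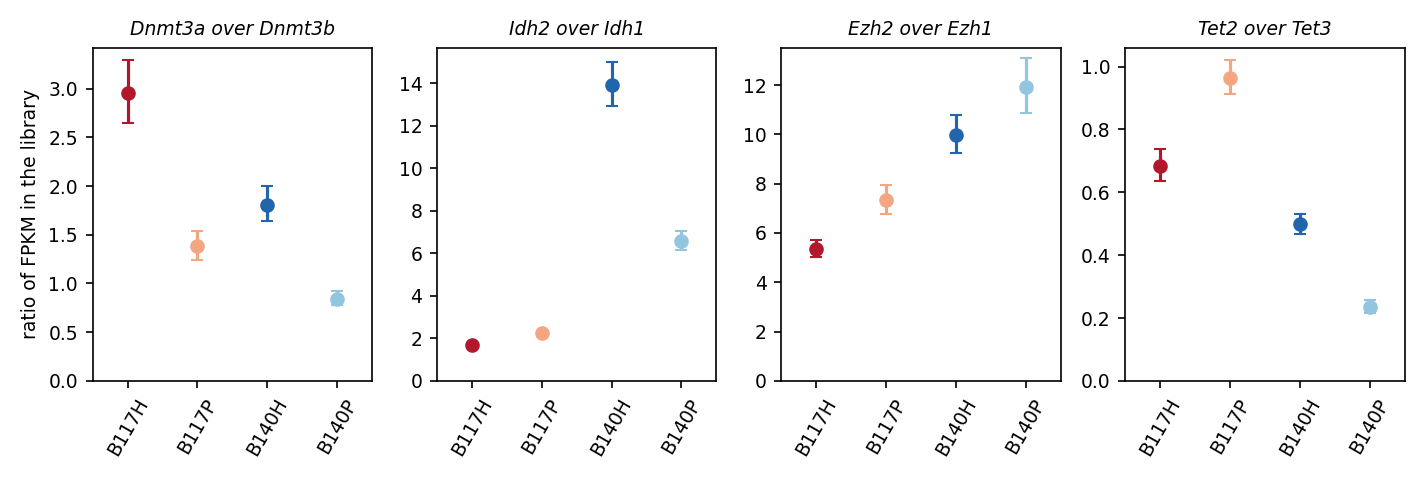
FPKM ratios of Dnmt3a over Dnmt3b, Idh2 over Idh1, Ezh2 over Ezh1 and Tet2 over Tet3 inside each library, on linear axes. Each resistant line is left of its parent, with 95% counting intervals. The Dnmt3a over Dnmt3b ratio is higher in B117H (2.95) than in B117P (1.38) and higher in B140H (1.81) than in B140P (0.843), and the Idh2 over Idh1 ratio is highest in B140H (13.9).

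Of 20 listed partners of the methyltransferases and methyl-CpG readers 17 were expressed, and 0 were called in either lineage. With 4.62% of expressed genes called in B117H and 3.94% in B140H, 0 in a list of this length is near the background, and the same holds for the other short lists below. Their median log2 ratio was 0.09 in B117H and 0.07 in B140H. Uhrf1, which brings DNMT1 to newly replicated DNA, was at 88.9 FPKM in B117H and 84.1 in B117P, and at 109 in B140H and 74.6 in B140P. Uhrf1 and Dnmt1 thus lay on opposite sides of their parental level in B140H. Dnmt3l, a partner of the de novo enzymes without catalytic activity, was at 0.348 FPKM in B117H and 0.621 in B117P and listed at 0 in both B140 lines. Its listed span overlaps that of Aire, and whether this touched its value was not tested.

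The 3 TET genes differed strongly in level. Tet3 (mm9 chr6:83312368-83391672) was at 8.64 FPKM in B117H and 11.3 in B117P, and at 11.3 in B140H and 13.1 in B140P. Its log2 ratios were -0.35 in B117H and -0.19 in B140H, lower than the parent in both lineages and short of 1.5-fold. Tet1 (mm9 chr10:62267318-62342762) was at 0.757 FPKM in B117H and 0.803 in B117P, was listed at 0 in B140H and was at 0.00726 in B140P. These levels stand for about 213 fragments in B117H and 257 in B117P, and 0 in B140H and 2 in B140P. A count of 0 in B140H allows up to 0.00852 FPKM, the level of 3 fragments. Tet1 RNA was therefore low in the B117 lineage and at or under the detection limit in the B140 lineage, and no ratio is given there.

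Tet2, the TET gene most often mutated in human myeloid disease (mm9 chr3:133126641-133207354), was at 5.91 FPKM in B117H and 10.9 in B117P, and at 5.62 in B140H and 3.09 in B140P. The resistant lines were close to each other and lay between the levels of the parents. The level in B117H was 54.3% of that in B117P (50.5 to 58.5), a log2 ratio of -0.78. The level in B140H was 182.2% of that in B140P (164.7 to 202.0), a log2 ratio of 0.70. The neighbourhoods differed as well. The 20 nearest expressed genes, over 7.19 Mb, had a median log2 ratio of 0.02 in B117H, with 0 past 2-fold, and of 0.96 in B140H, with 8 past 2-fold, all higher. Tet2 was thus below every one of its neighbours in B117H, of which the lowest was at -0.66, whereas in B140H it was below the median of its neighbours. The part of the region in the level of Tet2 was not tested. The whole of chromosome 3 had a median of 0.02 in B117H and -0.03 in B140H. Tet2 over Tet3 was 0.684 in B117H and 0.964 in B117P, and 0.498 in B140H and 0.236 in B140P. Tet3 had the highest FPKM of the TET genes in every line. In B117P, however, the counting interval of Tet2 over Tet3 (0.912 to 1.02) included equal levels. The sum of all 3 was 15.3 FPKM in B117H and 23.0 in B117P, and 16.9 in B140H and 16.2 in B140P.

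**Figure D3:**
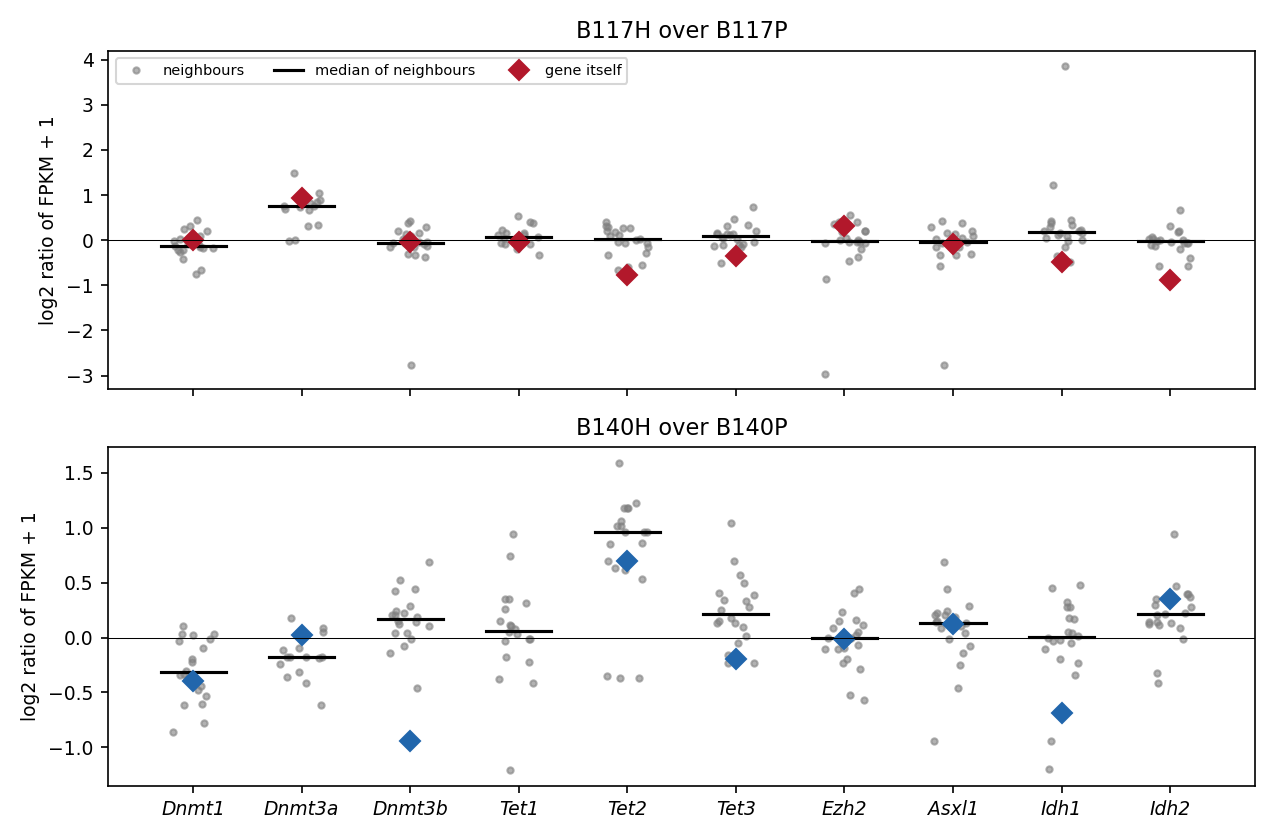
Log2 ratio of FPKM + 1 for each gene (diamonds), for up to 10 expressed genes on each side of it (grey points) and for the median of those neighbours (bars), B117H over B117P above and B140H over B140P below, on separate vertical scales. The neighbours of Dnmt3a are high in B117H (median 0.75) and those of Tet2 in B140H (median 0.96), while Dnmt3b in B140H (-0.94) lies far below its neighbours (median 0.17); Tet1 has no diamond in B140H.

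Of 13 further genes of demethylation or TET function 9 were expressed, and 1 was called. Gadd45b, a stress-response gene linked to DNA demethylation, fell to 2.86 FPKM in B117H, against 8.88 in B117P, a log2 ratio of -1.35. It was at 0.812 FPKM in B140H and 0.356 in B140P, a log2 ratio of 0.42. The list had a median of 0.23 in B117H and -0.02 in B140H.

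Of the 9 expressed genes, Idh1 had the largest ratio between the lineages. Idh1 (mm9 chr1:65205190-65233053) was at 56.7 FPKM in B117H and 79.5 in B117P, and at 13.3 in B140H and 21.9 in B140P. Each resistant line was below its parent, and both B140 lines were below both B117 lines. The level in B117H was 71.4% of that in B117P (67.9 to 75.0), and that in B140H was 60.5% of that in B140P (54.9 to 66.6). The log2 ratios were -0.48 in B117H and -0.68 in B140H, with a mean of -0.58 ± 0.15 (SD over the 2 lineages). The neighbours of Idh1 had medians of 0.18 in B117H and 0.01 in B140H.

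Idh2 (mm9 chr7:87239734-87260236) was at 96.9 FPKM in B117H and 178.6 in B117P, and at 184.8 in B140H and 144.6 in B140P. B117H stood below the other 3 lines. The level in B117H was 54.3% of that in B117P (52.1 to 56.6), a log2 ratio of -0.88, and that in B140H was 127.8% of that in B140P (123.3 to 132.5), a log2 ratio of 0.35. Neighbours of Idh2 had medians of -0.02 in B117H and 0.21 in B140H. Idh2 over Idh1 was 1.71 in B117H and 2.25 in B117P, and 13.9 in B140H and 6.59 in B140P. Mitochondrial Idh2 RNA therefore exceeded cytosolic Idh1 RNA in every line, by the largest factor in B140H.

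Of 22 other listed genes of 2-oxoglutarate and 2-hydroxyglutarate metabolism 21 were expressed and 0 were called in either lineage, near the background share, with medians of -0.09 in B117H and 0.25 in B140H. The 18 genes of the methyl donor cycle were all expressed, with medians of -0.14 in B117H and 0.11 in B140H, and 1 was called in B140H. Amd1, which takes S-adenosylmethionine into polyamine synthesis, was at 0.00496 FPKM in B140H and 9.07 in B140P. Its span overlaps that of Amd2, a near-identical copy, so that value is uncertain.

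Of the Polycomb genes in the set, Ezh2 (mm9 chr6:47480273-47545029) was at 71.6 FPKM in B117H and 57.0 in B117P, and at 71.0 in B140H and 71.9 in B140P. B117P was the lowest and the other 3 lines lay between 71.0 and 71.9 FPKM. The level in B117H was 125.6% of that in B117P (120.0 to 131.4), a log2 ratio of 0.32, and that in B140H was 98.8% of that in B140P (94.7 to 103.1), a log2 ratio of -0.02. Its paralog Ezh1, the other PRC2 catalytic subunit, was at 13.4 FPKM in B117H and 7.75 in B117P, and at 7.11 in B140H and 6.02 in B140P. Ezh2 over Ezh1 was 5.36 in B117H and 7.35 in B117P, and 9.98 in B140H and 11.9 in B140P. Ezh2 exceeded Ezh1 in every line, and the ratio was lower in each resistant line than in its parent.

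The PRC2 core subunits stayed within 2-fold of the parent. Suz12 was at 68.7 FPKM in B117H and 50.01 in B117P, and at 71.2 in B140H and 64.7 in B140P. Eed, which binds methylated lysine 27, was at 31.3 FPKM in B117H and 33.1 in B117P, and at 46.2 in B140H and 44.3 in B140P. The 10 PRC2 subunits other than Ezh2 were all expressed by the mean over the 4 libraries. In each B140 line 9 were at 1 FPKM or more. The same 1 was listed at 0 in both B140 lines, so it could not be called there. Of the 10 subunits 1 was called within a lineage. Jarid2, an accessory subunit that helps bring PRC2 to its targets, fell to 7.20 FPKM in B117H, against 18.8 in B117P, a log2 ratio of -1.27. Its neighbours were also low in B117H, with a median of -0.79, and chromosome 13 as a whole had a median of -0.44. Of 23 expressed PRC1 subunits 1 was called. Pcgf6, of a variant PRC1, rose to 2.03 FPKM in B117H, against 0.0442 in B117P, a log2 ratio of 1.54 on FPKM + 1. It was at 11.5 FPKM in B140H and 12.8 in B140P, so B117H was still below both B140 lines. The neighbours of Pcgf6 had a median log2 ratio of -0.47 in B117H.

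Asxl1 (mm9 chr2:153171875-153229743) had the narrowest range of levels in the set. It was at 23.0 FPKM in B117H and 24.3 in B117P, and at 23.5 in B140H and 21.5 in B140P. The level in B117H was 94.7% of that in B117P (90.3 to 99.3), a log2 ratio of -0.08, and that in B140H was 109.3% of that in B140P (104.2 to 114.7), a log2 ratio of 0.12. Asxl1 ends 245 kb before Dnmt3b starts, and the pair had unlike ratios in B140H. The paralog Asxl2 was at 16.98 FPKM in B117H and 9.71 in B117P, and at 10.3 in B140H and 13.5 in B140P. Asxl2 is one of the 15 expressed neighbours of Dnmt3a on chromosome 12. Its log2 ratio in B117H was 0.75, and the median of those neighbours was 0.75 as well. The part of that region in the level of Asxl2 was not tested. Bap1, the deubiquitinase that ASXL proteins activate, was at 24.1 FPKM in B117H and 26.4 in B117P, and at 36.2 in B140H and 26.8 in B140P. Of 8 expressed partners in this complex 0 were called.

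Genes that oppose Polycomb included 1 call among 15, all expressed. Nsd1, a histone H3 lysine 36 methyltransferase, fell to 0.0347 FPKM in B117H, against 3.21 in B117P, a log2 ratio of -2.02. In B140H it was at 5.89 FPKM, against 5.80 in B140P. It too lies on chromosome 13, where 11 of its 20 neighbours were lower past 2-fold in B117H and the neighbours' median was -1.06. Of 19 other chromatin and splicing genes mutated in myeloid leukaemia, all expressed, 0 were called in either lineage.

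**Figure D4:**
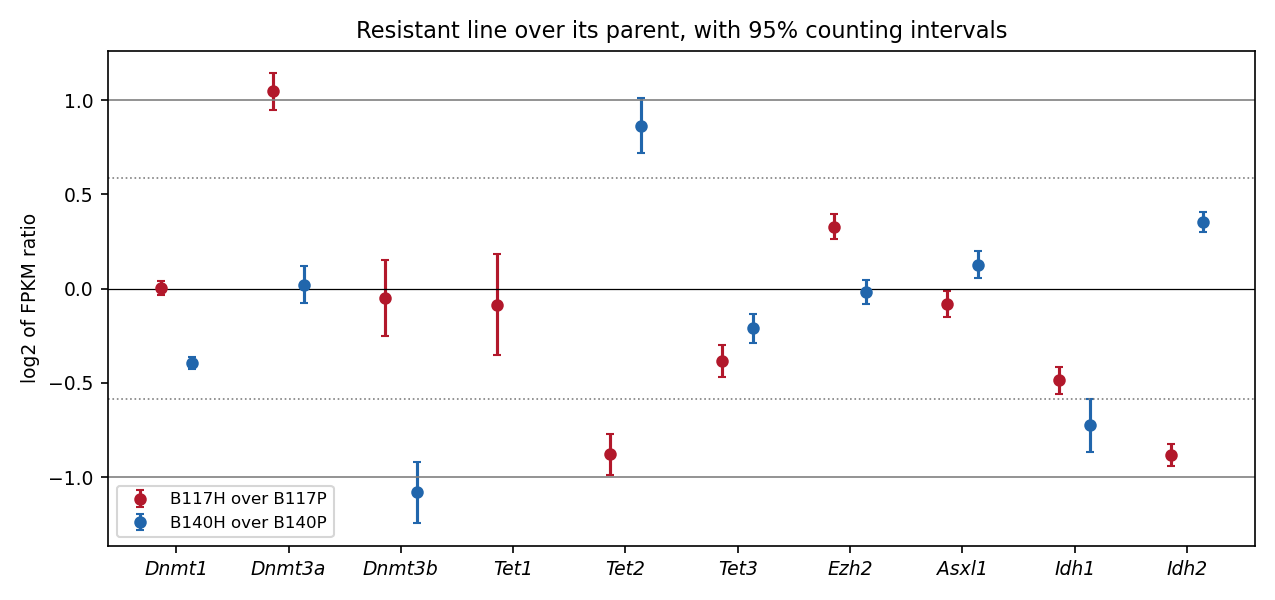
Log2 ratio of FPKM, without an added pseudocount, for each gene in B117H over B117P and in B140H over B140P, with 95% counting intervals, solid lines at 2-fold and dotted lines at 1.5-fold. Tet2 and Idh2 lie on opposite sides of 0 in the 2 lineages and Idh1 is below 0 in both; Tet1 has no value in B140H.

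For the question of a difference shared by both lineages, limma was fitted to log2(FPKM + 1) of all 4 lines, resistant over sensitive and blocked by lineage, which left 1 residual degree of freedom. It called 0 of 10066 expressed genes at an adjusted p of 0.05, that is 0% of them, and 218 had an unadjusted p under 0.05. Idh1 had the lowest p of the 9 genes, with a mean log2 ratio of -0.58 (limma SE 0.24, unadjusted p = 0.0506, adjusted p = 0.9995), lower in 2 of 2 resistant lines. Dnmt3b had a mean of -0.49 (limma SE 0.30, adjusted p = 0.9995), and Dnmt3a one of 0.48 (limma SE 0.30, adjusted p = 0.9995). Each of these means came almost wholly from 1 lineage, B140 for Dnmt3b and B117 for Dnmt3a. Tet2 had a mean of -0.04 from ratios of opposite sign.

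Levels between the lineages differed more widely. For B140P over B117P, 16.6% of expressed genes were past 2-fold and 33.3% past 1.5-fold. For B140H over B117H, 18.9% were past 2-fold and 36.9% past 1.5-fold. Of the 9 genes, Tet2 and Idh1 were past 2-fold for B140P over B117P, both lower, and Idh1 for B140H over B117H, again lower. Idh1 in B140P was at 27.6% of its level in B117P (25.7 to 29.6), a log2 ratio of -1.81. In B140H it was at 23.4% of its level in B117H (21.6 to 25.4), a log2 ratio of -2.02, or -2.16 relative to the median of 0.15 over all genes. Tet2 in B140P was at 28.4% of its level in B117P (25.8 to 31.2), a log2 ratio of -1.54, while B140H was at 95.1% of B117H (87.6 to 103.3). The deposited tables gave 6 genes other coordinates in one lineage than in the other, so a separate normalisation of each lineage is possible. Levels set across lineages carry that limit, and ratios inside a library do not.

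Readouts that DNA methylation or Polycomb is known to repress were also looked at. Of 16 germline genes that promoter methylation silences in mouse somatic cells, 0 were expressed. The highest level of any was 1.002 FPKM, in B117H. Of 20 imprinted genes 3 were expressed and 0 were called. Of 22 Polycomb targets 6 were expressed and 1 was called within a lineage. Cdkn1a, the cell cycle inhibitor p21, fell to 10.1 FPKM in B117H, against 23.6 in B117P, a log2 ratio of -1.14. It was at 186.6 FPKM in B140H and 117.01 in B140P, a log2 ratio of 0.67. At 1.5-fold in either direction, 2 of the 6 expressed Polycomb targets were called in B117H, where 13.8% of expressed genes were. In B140H 3 of the 6 were, against 13.1% of expressed genes. Of that list Pax5 and Ebf1 are also B cell markers.

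DNMT1, UHRF1 and EZH2 are known to be made mainly in dividing cells, so S phase and proliferation genes are given beside them. All 20 were expressed, with a median log2 ratio of 0.11 in B117H, against -0.03 for all expressed genes, and 0.39 in B140H, against 0.11. Cyclin E1, Ccne1, was the one gene called. It fell to 5.33 FPKM in B117H, against 13.9 in B117P, a log2 ratio of -1.24, and rose to 30.5 in B140H, against 12.3 in B140P, a log2 ratio of 1.24. In B117H the log2 ratios were 0.00 for Dnmt1, 0.08 for Uhrf1 and 0.32 for Ezh2, of which Ezh2 was above that list's median. In B140H they were -0.39 for Dnmt1, 0.54 for Uhrf1 and -0.02 for Ezh2, of which Uhrf1 was above it. The part of cell growth in these levels was not tested.

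**Figure D5:**
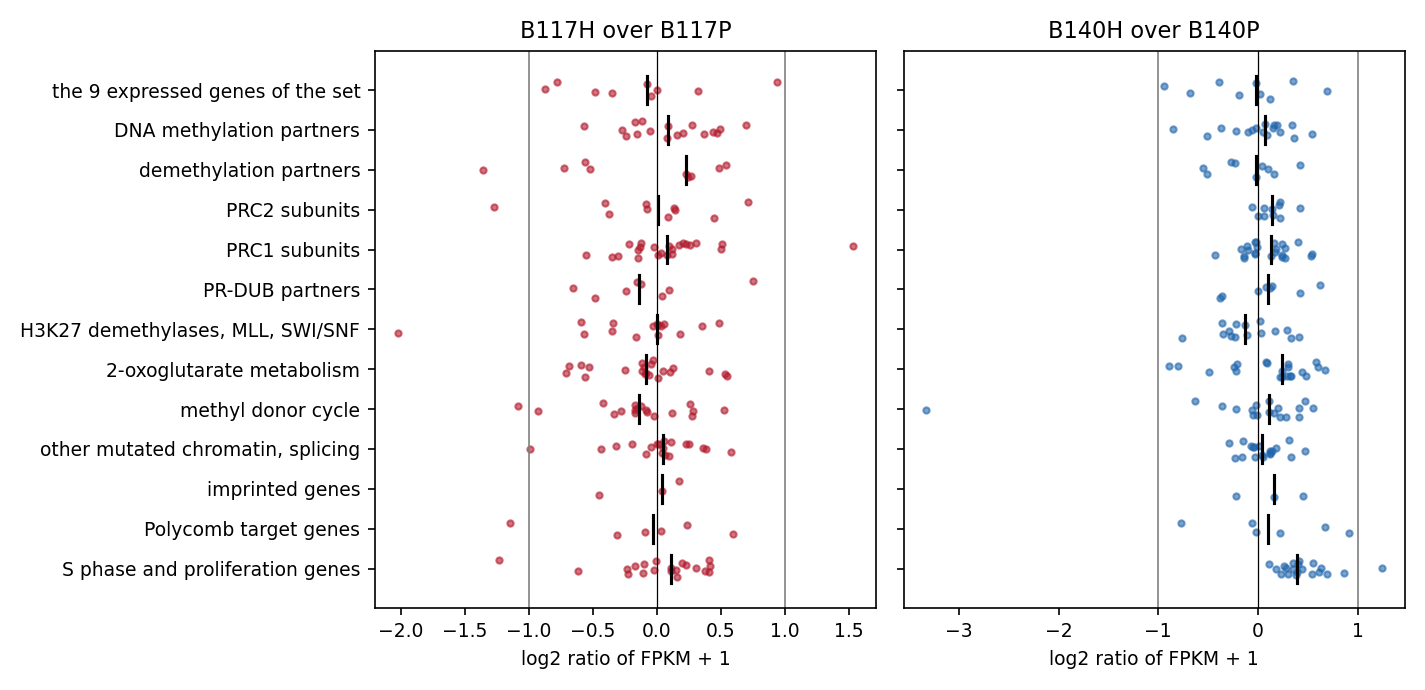
Log2 ratio of FPKM + 1 for every expressed gene of the set and of 12 companion lists (points) with each list's median (bars), B117H over B117P on the left and B140H over B140P on the right on separate horizontal scales, with grey lines at 2-fold. List medians lie between -0.14 and 0.39, and few genes are past the lines, among them Nsd1 (-2.02) and Pcgf6 (1.54) in B117H and Amd1 (-3.33) in B140H.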

How the data were processed

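RNA of 4 mouse leukaemia lines was sequenced, 1 library each. The authors deposited FPKM values per gene, made with TopHat2 2.0.4 and Cuffdiff on mm9 per the submitters' processing notes. No count, interval or p-value column was among the columns used, and no strand setting is given in the sources used here. Spans equalled those of RefSeq for 6285 of 19357 symbols if starts count from 0 and for 434 if they count from 1, so starts were raised by 1.

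Small RNA genes held 17.4% to 98.1% of the summed FPKM, and they enter the deposited values as they are. Ratios were taken on log2(FPKM + 1) over genes whose mean FPKM was at least 1, and a gene was called at 2-fold or more. Within a lineage no test is possible, since each line has 1 library. limma 3.58.1 (R 4.3.3) with a mean-variance trend, the lineage as block and Benjamini-Hochberg adjustment was fitted over all expressed genes, two-sided. The pairing of resistant line with parent comes from the series labels. With the lineage as block, p-values rest on how far the ratios of the 2 lineages differ and on variance borrowed over all genes. They do not measure the spread between cultures of a line.

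Fragments were estimated from FPKM, the longest coding transcript in GENCODE M21 and a depth per library of 19100000 to 24500000. That depth is the one at which low FPKM values of 735 single-transcript genes of 3 kb or more came out whole. Between 72.1% and 83.3% of 48 to 76 low values per library were whole within 0.15, and the depth was set on the same values. Ratios of 2 genes inside a library have intervals on the log scale from estimated fragments. The FPKM of a gene with several transcripts does not follow 1 length, so its fragments are approximate.

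The 10 genes and the lists were chosen with earlier results of these data known. The genes named were all 10, every expressed list gene past 2-fold in either lineage, up to 4 per list, and Ezh1, Suz12, Eed, Bap1, Asxl2, Uhrf1 and Dnmt3l. Results for some genes are not reported here. Neighbours were the 10 expressed genes on each side on the chromosome. Marker genes named were chosen after their values were seen. Promoter sequences are RefSeq windows of GRCm38.p6 and no mm9 coordinate was converted.

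Alternatives were the pseudocount, the filter, the fold rule, centring on the median ratio, rescaling to TPM without small RNA genes, subtracting the neighbours' median (added after seeing the data), and, for limma, quantile normalization, each library left out in turn (without the block, since a blocked fit to 3 libraries has no residual degrees of freedom), and fits without the block or without the trend.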

Additional observations from a re-analysis of the deposited data

Results flagged for a closer look

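Tet2 differed in direction between the lineages, with a log2 ratio of -0.78 in B117H over B117P and 0.70 in B140H over B140P. Cdkn1a did so as well, with -1.14 in B117H over B117P and 0.67 in B140H over B140P. The same held for Ccne1, with -1.24 in B117H over B117P and 1.24 in B140H over B140P. Each was noticed because the 2 lineages moved in opposite directions, and with 1 library per line the difference between the lineages was not tested.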

How the results depend on the processing

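Within the lineages, log2 ratios changed sign for Dnmt3a in B140H (-0.09 after centring, -0.13 as TPM without small RNA genes), Asxl1 in B140H (-0.03 as TPM, -0.01 after subtracting the neighbours' median), Dnmt3b in B117H (0.02) and Tet2 in B140H (-0.26), the last 2 after subtracting the neighbours' median. Of the 9 genes, Dnmt3a was past 2-fold in B117H, 1 gene, with a pseudocount of 0.1 and as TPM. Dnmt3b was past it in B140H, 1 gene, with a pseudocount of 0.1, after centring and as TPM. At 1.5-fold 3 were past it in each lineage. For B140P over B117P, 3 genes were past 2-fold with a pseudocount of 0.1 and as TPM, and 0 were past 4-fold. For B140H over B117H, 2 were past 1.5-fold.

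Of all expressed genes, a pseudocount of 0.1 called 707 in B117H over B117P and 647 in B140H over B140P. At a mean FPKM of 5 or more 308 were called in B117H over B117P, 260 in B140H over B140P, 1028 in B140P over B117P and 1225 in B140H over B117H. In the same order of comparisons the 1.5-fold rule called 1391, 1316, 3347 and 3715 and the 4-fold rule 107, 95, 610 and 650. In B140H over B140P 233 genes were higher and 164 lower, against 173 higher and 199 lower after centring. In B140H over B117H 975 were higher and 925 lower, against 761 and 1062 after centring.

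limma called 4 genes at a mean FPKM of 5 or more, 0 with no replicate block (39 with an unadjusted p under 0.05), and 0 to 6 when 1 library was left out, the 6 without B140P. Those fits also had no lineage block, so both choices changed at once. None of these was among the 10 genes. The cause was not tested. Without replicate libraries the spread between cultures is unknown, so no ratio within a lineage can be set against it.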
